A study of Mus musculus with 48 samples.

Results

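Goblet cells are the mucus-secreting cells of the intestinal epithelium, and the 10 genes described here encode their main mucus proteins, a peptide-folding enzyme, a secreted defence protein and 2 transcription factors of the lineage. They were taken by symbol (Muc2, Tff3, Fcgbp, Clca1, Zg16, Agr2, Spink4, Spdef, Atoh1 and Retnlb) from a table of 54532 genes, and all 10 were found and passed the filter on low counts. Retnlb passed it only through its week 4 samples. The RNA came from whole-thickness pieces, 2 cm long, of the duodenum just after the pylorus and of the ileum just before the ileocecal junction. Male and female C57Bl/6J mice were used, with no genetic change or treatment named, and they were killed on day 0, 2, 4, 6 or 8 or at week 2, 3 or 4 after birth. Pups were left with the dam to day 21 and fed chow from then, so age and diet cannot be told apart at the later ages. The labels name the housing as standard and germ-free, yet say that litters were spread over ages to even out exposure to microbes, so the microbial status of the mice is not settled by them. Each of the 16 groups of region and age had 3 samples numbered 1 to 3, 48 in all. The labels do not say whether the samples of a group, or the equally numbered samples of both regions, came from separate animals, so the tests measure the spread between these samples.

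The 2 samples of day 6 numbered 3 were left out, since earlier results of these data had shown each to resemble the other region, which leaves 46 samples and 2 per region at day 6. Total counts of the 46 ran from 16824021 to 65042327. The labelled region was checked against Pdx1, which encodes a homeobox factor of the duodenum and pancreas, and Fabp6, the ileal bile acid binding protein gene. Pdx1 lay between 10.2 and 25.02 CPM (counts scaled to a common library size by edgeR's TMM method) in 20 of 23 duodenal samples, and at 2.41, 3.99 and 1.81 CPM in day 0 number 1, week 2 number 2 and week 4 number 2. In the ileum it stayed at or under 2.87 CPM, apart from 6.51 CPM in day 0 number 2. Pdx1 therefore overlapped between the regions at 2 ages. Duodenal week 4 number 2 lay below ileal week 4 numbers 1 and 3 (2.21 and 2.87 CPM), and duodenal day 0 number 1 below ileal day 0 number 2. Within each age, every ileal sample held more Fabp6 than every duodenal one. Fabp6 was 1256 and 1936 CPM in week 4 ileum numbers 2 and 3 but 41.7 CPM in number 1. Calls that ended when 1 library was left out are given below as counts of such omissions or with the library named.

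The goblet cell is born in the crypt from a progenitor that escapes Notch signalling and switches on Atoh1, and Spdef then drives its maturation. It packs Muc2, a very large polymer of disulfide-linked and heavily O-glycosylated subunits, into granules. Fcgbp, Clca1, Zg16 and Tff3 are secreted with it and form, cut or coat the mucus gel that keeps bacteria off the epithelium. Whole tissue was measured here, so fewer goblet cells and less RNA per goblet cell cannot be told apart.

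RefSeq promoter sequence (build GRCm38.p6, the 250 bases before the annotated start) was at hand for 5 of the 10 genes, Muc2, Fcgbp, Agr2, Spdef and Atoh1. Muc2, Fcgbp and Agr2 are shown because the first 2 encode the major gel proteins and the last the enzyme that folds Muc2, and all 3 rose at weaning age in both regions on the CPM scale. Capitals mark every E-box, CANNTG, the core bound by basic helix-loop-helix factors such as Atoh1. The windows are chr7:141690090-141690339 on the plus strand for Muc2, chr7:28070986-28071235 on the plus strand for Fcgbp and chr12:35992675-35992924 on the plus strand for Agr2.
Muc2: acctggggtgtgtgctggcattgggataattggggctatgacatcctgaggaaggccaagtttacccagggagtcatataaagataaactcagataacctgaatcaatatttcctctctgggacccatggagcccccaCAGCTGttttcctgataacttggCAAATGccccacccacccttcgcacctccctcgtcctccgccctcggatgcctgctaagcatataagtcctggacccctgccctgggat
Fcgbp: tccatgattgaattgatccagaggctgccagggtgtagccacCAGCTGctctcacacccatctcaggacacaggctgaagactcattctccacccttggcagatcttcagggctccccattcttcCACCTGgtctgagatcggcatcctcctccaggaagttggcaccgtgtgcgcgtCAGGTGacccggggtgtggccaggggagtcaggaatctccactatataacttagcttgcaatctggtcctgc
Agr2: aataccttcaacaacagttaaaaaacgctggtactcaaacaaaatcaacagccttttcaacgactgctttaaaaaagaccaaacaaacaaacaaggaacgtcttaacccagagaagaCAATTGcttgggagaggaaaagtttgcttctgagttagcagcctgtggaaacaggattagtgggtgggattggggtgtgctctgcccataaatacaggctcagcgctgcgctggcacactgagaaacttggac

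The form CAGCTG, one of the CANNTG words, begins at base -112 of Muc2 and base -208 of Fcgbp, counted from the start. Agr2 holds 1 E-box, at base -133, and it is not of that form, and the windows of Spdef and Atoh1 hold none. On either strand, CANNTG occurs in 66.2% of the 32536 RefSeq windows of this length and CAGCTG in 13.1%. TTTATNG, a word of the caudal homeobox factors, was found on the opposite strand of Agr2 (9.74% of windows). GGATGT, which holds the GGAT core read by Spdef, was found on the opposite strand of Muc2 (9.52%). Muc2 also has a TATAAA at base -174 (12.3%), and TGTTTAC, a forkhead word (3.17%), was in none of the 5. These are matches of letters, not measured binding sites.

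The first question was how the mucus genes change as the newborn gut matures. From day 0 to week 4 the rise was called for all 10 genes in the ileum and for 6 of 10 in the duodenum, or for 6 and 2 with libraries scaled on epithelial genes, a scale described below that also called 2 lower in the duodenum and on which more of all genes were called. Here "called" means an adjusted p under 0.05 in edgeR's quasi-likelihood test, adjusted over all 21986 genes tested, of which 41.9% were called in the ileum and 40.5% in the duodenum. Genes called higher made up 21.5% and 20.4% of all genes tested. Retnlb, one of the 10 in the ileum, passed the filter only through its week 4 samples. The median log2 fold change of the 10 genes was 1.94 in the ileum and 1.05 in the duodenum, beside 0.08 and -0.02 over all genes tested.

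Epithelial markers moved in the same direction. Of 7 pan-epithelial genes (Epcam, Cdh1, Vil1, Krt8, Krt18, Krt19 and Cldn7), 6 were called higher at week 4 than at day 0 in the duodenum, and 6 higher and Krt18 lower in the ileum. Their summed level was 3690 to 3960 CPM on day 0 and 7450 to 10200 CPM at week 4 in the duodenum, and 3510 to 4380 and 6540 to 10100 CPM in the ileum. Libraries were therefore also scaled on these 7 genes, which moved the median change of all genes by -1.02 in the duodenum and -0.99 in the ileum. On that scale 6 members were called higher in the ileum, where 61.1% of all genes were called, and 2 higher and 2 lower in the duodenum, where 65.2% were. Every direction from day 0 to week 4 given below is on the CPM scale. Where the epithelial scale turns the sign of a single gene printed with its change, this is said beside it. Counts and medians of the gene lists below are given on the CPM scale only. Several of those medians are smaller than the shift of all genes, so the lists cannot be taken to rise on both scales.

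**Figure D1:**
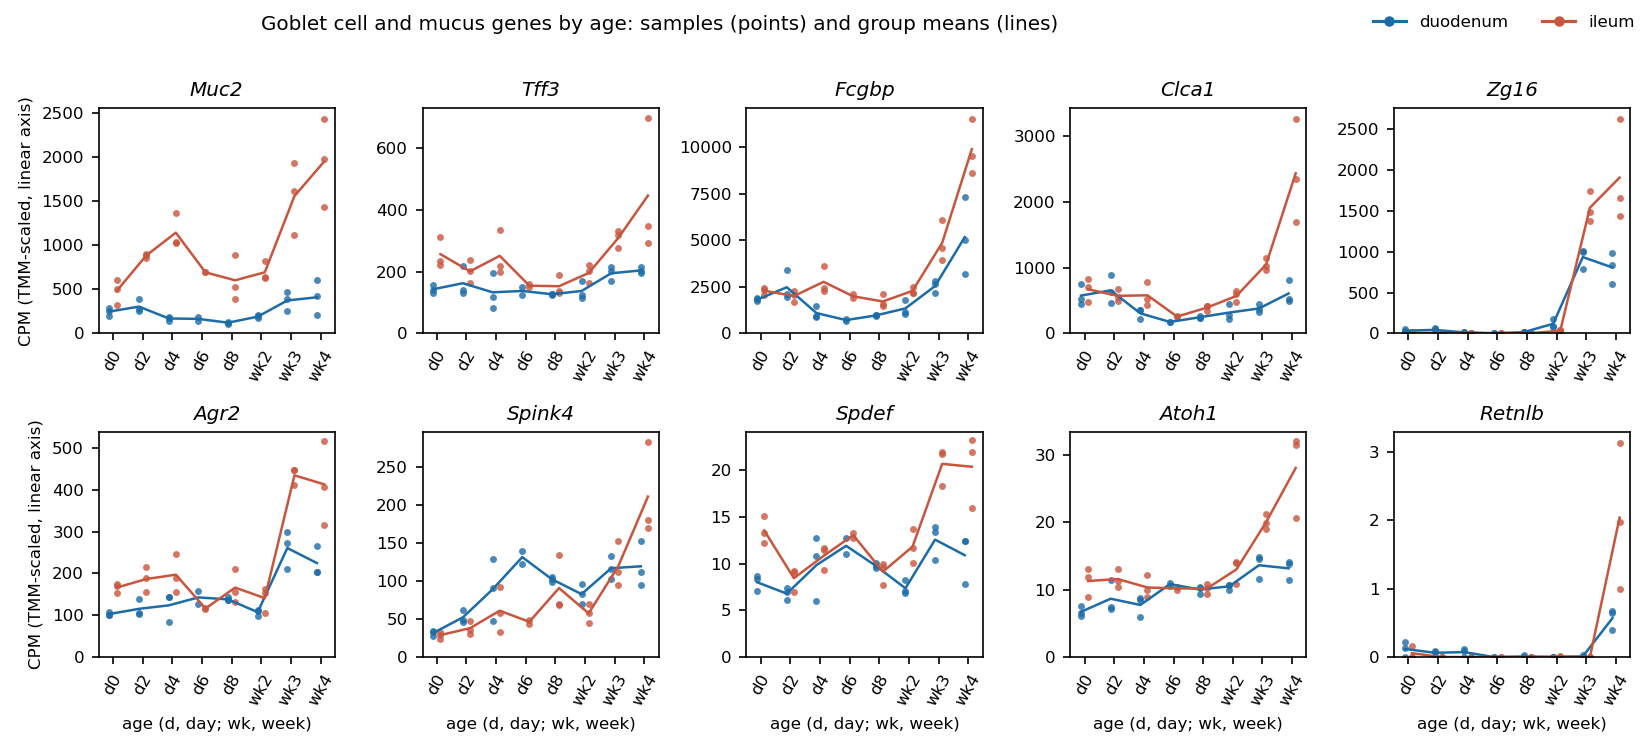
Level of each of the 10 genes in CPM (linear axes that start at 0, a different range per gene) at the 8 ages, with 1 point per sample, lines through the group means, duodenum in blue and ileum in red. In the ileum at week 4 the means reach 1949 CPM for Muc2 and 9898 CPM for Fcgbp, and Retnlb leaves the baseline at week 4, at 2.04 CPM in the ileum and 0.569 CPM in the duodenum.

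Muc2 (chromosome 7, 141690340 to 141754693, plus strand, mm10), the gel-forming mucin, was higher in the ileum than in the duodenum at every age. Ileal samples 1 to 3 held 327, 503 and 609 CPM on day 0, 1037, 1368 and 1025 on day 4, 392, 524 and 891 on day 8, and 1434, 1978 and 2435 at week 4. Duodenal samples held 292, 259 and 194 CPM on day 0, 144, 176 and 189.6 on day 4, 112, 135 and 119 on day 8, and 207, 603 and 422 at week 4. Every ileal sample lay above every duodenal one of its age. In the ileum the log2 fold change from day 0 to week 4 was 2.02 ± 0.30 (SE; adjusted p = 5.79e-07), and the samples did not overlap. In the duodenum it was 0.72 ± 0.29 (adjusted p = 0.0427), with overlapping samples, and -0.35 on the epithelial scale. That duodenal call also fell away without week 4 number 2, the library with the lowest Pdx1 of its group (0.39, adjusted p = 0.318), and without any 1 of 3 other libraries.

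Fcgbp (chromosome 7, 28071236 to 28120862, plus strand) encodes a large mucus protein that binds to Muc2, and it rose in both regions. At week 4 it stood at 8645, 11540 and 9513 CPM in the ileum and at 3193, 7326 and 4995 CPM in the duodenum. On day 0 the values were 2457, 2089 and 2344 CPM in the ileum and 1878, 1734 and 1829 CPM in the duodenum, so week 4 did not overlap with day 0 in either region. The log2 fold change was 2.11 ± 0.26 in the ileum (adjusted p = 1.41e-08) and 1.51 ± 0.25 in the duodenum (adjusted p = 6.54e-06). On the epithelial scale these were 1.12 and 0.45, and the duodenal one was no longer called (adjusted p = 0.0673).

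Clca1 (chromosome 3, 145003817 to 145032776, minus strand), a secreted metalloprotease that cuts Muc2 and loosens the gel, behaved differently in the 2 regions. In the ileum it rose from 484, 708 and 826 CPM on day 0 to 1694, 2347 and 3268 CPM at week 4, a log2 fold change of 1.86 ± 0.27 (adjusted p = 5.94e-07). In the duodenum it was 446, 532 and 749.7 CPM on day 0 and 488, 809 and 527 CPM at week 4, a log2 fold change of 0.08 ± 0.27 that was not called (adjusted p = 0.844) and whose sign turned when 1 of 2 libraries was left out. On the epithelial scale the duodenal value was -0.97 and called lower (adjusted p = 0.00286). The difference between the regions' changes was itself called, at 1.78 ± 0.38 on the log2 scale (adjusted p = 0.00358).

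Zg16 (chromosome 7, 127050156 to 127087328, minus strand), a lectin-like protein that binds the wall of Gram-positive bacteria, had the widest range of all members apart from Retnlb. Its exons overlap with those of no other annotated gene. In the ileum it was 0.261 and 0.227 CPM in the 2 samples of day 6, 41.8, 24.99 and 37.6 CPM at week 2, then 1493, 1750 and 1381 at week 3 and 1664, 1441 and 2625 at week 4. In the duodenum it was 3.39 and 2.58 CPM on day 6, 178, 84.2 and 92.0 CPM at week 2, then 1004, 1009 and 795 at week 3 and 599.9, 985 and 839 at week 4. The highest group mean was 7840 times the lowest in the ileum and 314 times in the duodenum. The lowest ileal mean, at day 6, rests on 13 estimated counts over 2 libraries, so the ileal ratio is imprecise. Ordered by duodenal means, day 6 was lowest at 2.98 ± 0.577 CPM (SD, n = 2), followed by 12.7 ± 7.50 CPM for day 4, 15.0 ± 2.12 for day 8, 34.0 ± 13.8 for day 0, 43.6 ± 24.97 for day 2, 118 ± 52.3 for week 2, 808 ± 194 for week 4 and 936 ± 122 for week 3 (SD, n = 3). Samples of neighbours in that order overlapped for day 4 and day 8, for day 0 and day 2, and for week 4 and week 3, and not elsewhere. In the ileum the order was day 6 at 0.244 ± 0.0241 CPM (SD, n = 2), then 2.25 ± 1.17 for day 2, 3.14 ± 1.35 for day 8, 4.80 ± 3.81 for day 4, 11.3 ± 5.23 for day 0, 34.8 ± 8.76 for week 2, 1541 ± 189 for week 3 and 1910 ± 629 for week 4 (SD, n = 3). Neighbours from day 2 to day 0 in that order overlapped, as did week 3 and week 4, and the others did not. From day 0 to week 4 the log2 fold change was 7.39 ± 0.62 in the ileum (adjusted p = 6.7e-12) and 4.57 ± 0.54 in the duodenum (adjusted p = 1.79e-08).

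**Figure D2:**
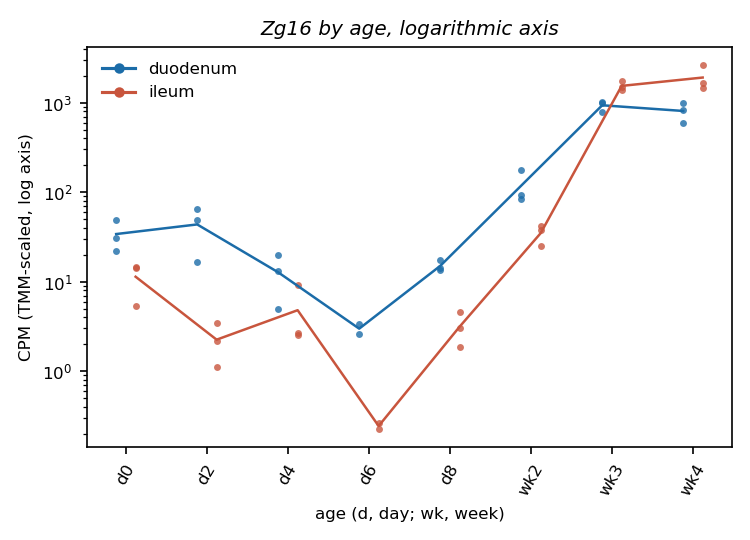
Zg16 in CPM on a logarithmic axis at the 8 ages, 1 point per sample and lines through group means, duodenum in blue and ileum in red. The ileal mean is 11.3 CPM on day 0 and 0.244 CPM on day 6 and ends at 1910 CPM at week 4, and the lines cross between week 2 and week 3.

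Tff3 and Spink4 encode small secreted proteins. Tff3 (chromosome 17, 31125306 to 31129646, minus strand), a trefoil peptide that aids repair of the epithelium, was 311, 222 and 236 CPM on day 0 and 348, 292 and 696 CPM at week 4 in the ileum. Its ileal log2 fold change of 0.80 ± 0.26 (adjusted p = 0.012) rested on week 4 number 3, without which it was 0.30 (adjusted p = 0.372), and it was -0.09 on the epithelial scale. In the duodenum Tff3 was 158, 139.7 and 131 CPM on day 0 and 200.4, 216 and 194 CPM at week 4, and its log2 fold change of 0.51 ± 0.26 was not called (adjusted p = 0.111) and was -0.52 on the epithelial scale. It was the only member not called for any effect of age in the duodenum (adjusted p = 0.0961). Over the 8 ages, 9 of 10 members were called in the duodenum and 10 of 10 in the ileum, where 67.4% and 58.7% of all genes were. Both counts include Retnlb, which passed the low-count filter only through its week 4 samples, so its calls for age are not independent of that filter. Muc2 was not called for age in the ileum on the epithelial scale (adjusted p = 0.082).

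Spink4 (chromosome 4, 40920052 to 40931395, plus strand), a Kazal-type protease inhibitor secreted by goblet cells, started low in both regions. It held 28.0, 32.6 and 34.4 CPM in the duodenum and 29.2, 33.3 and 24.1 CPM in the ileum on day 0. At week 4 it held 152, 112 and 94.3 CPM in the duodenum and 169.8, 181 and 283 CPM in the ileum. The log2 fold changes were 1.91 ± 0.31 (adjusted p = 3.12e-06) and 2.87 ± 0.32 (adjusted p = 1.7e-09). Its duodenal mean was highest at day 6, at 132 ± 11.9 CPM (SD, n = 2), which was so for no other member.

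Agr2 (chromosome 12, 35992907 to 36004087, plus strand) encodes the protein disulfide isomerase of the endoplasmic reticulum that Muc2 needs to fold. It was 108, 99.5 and 102 CPM on day 0 and 266, 203 and 204 CPM at week 4 in the duodenum, and 170.5, 174 and 154 CPM and 316, 406 and 516 CPM in the ileum, with no overlap in either region. The log2 fold changes were 1.13 ± 0.20 (adjusted p = 2.14e-05) and 1.32 ± 0.20 (adjusted p = 1.5e-06). On the epithelial scale they were 0.12 and 0.37, and neither was called.

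The log2 fold changes of the 2 regulators from day 0 to week 4 were smaller than those of Fcgbp, Zg16 and Spink4 in both regions, but not than those of all members. That of Atoh1 was larger than those of Muc2, Tff3 and Clca1 in the duodenum and than that of Tff3 in the ileum. That of Spdef was larger than that of Clca1 in the duodenum. Atoh1 (chromosome 6, 64729125 to 64731245, plus strand), the master gene of the secretory lineage, was 8.94, 11.8 and 13.1 CPM on day 0 and 20.6, 31.5 and 32.1 CPM at week 4 in the ileum. In the duodenum it was 6.07, 6.51 and 7.56 CPM on day 0 and 11.4, 14.2 and 13.9 CPM at week 4. Week 4 lay above day 0 without overlap in both regions. The log2 fold change was 1.31 ± 0.19 in the ileum (adjusted p = 2.45e-07; 0.32 and not called on the epithelial scale) and 0.97 ± 0.19 in the duodenum (adjusted p = 5.21e-05; -0.06 on the epithelial scale).

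Spdef (chromosome 17, 27714352 to 27728955, minus strand), the ETS factor of goblet and Paneth cell maturation, was 12.2, 13.3 and 15.1 CPM on day 0 and 15.96, 23.2 and 21.9 CPM at week 4 in the ileum. That log2 fold change, 0.59 ± 0.20, was called (adjusted p = 0.0163), but not when any 1 of 3 libraries was left out, and it was -0.41 on the epithelial scale. In the duodenum Spdef was 8.37, 7.01 and 8.62 CPM on day 0 and 12.5, 12.4 and 7.78 CPM at week 4, and the log2 fold change of 0.44 ± 0.20 was not called (adjusted p = 0.074). Without week 4 number 3 it was 0.67 and called (adjusted p = 0.00897), while on the epithelial scale it was -0.58 and called lower (adjusted p = 0.0183).

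Retnlb (chromosome 16, 48816856 to 48818892, plus strand) encodes a secreted resistin-like protein that bacteria and type 2 cytokines induce in goblet cells. It was close to absent until week 4. Estimated counts in the ileum were 34, 101 and 15 in the 3 samples of week 4, 4 over all samples of day 0, 1 over those of week 2, and 0 over those of day 2, 4, 6 and 8 and week 3. In the duodenum they were 26, 23 and 11 at week 4, 15 over the samples of day 0, 8 over those of day 2 and again of day 4, 1 over those of day 8 and of week 3, and 0 over those of day 6 and week 2. In CPM, every week 4 sample lay above every earlier sample of its region. With a floor of 3 counts over the group, the ileal level at week 4 was at least 51.6-fold higher than at week 3. In the duodenum the ratio of week 4 to week 3 was 72.2, with a 95% exact interval of 12.5 to 2900 that covers counting error only.

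Retnlb was called for week 4 against week 3 in the ileum (adjusted p = 0.000176) and in the duodenum (adjusted p = 0.00348). It held at most 0.219 CPM in any sample before week 4 and passed the low-count filter only through week 4. Its calls of week 4 are therefore not independent of that filter. Against day 0 the ratio was 54.3 (20.8 to 202) in the ileum, and the fitted change was called (adjusted p = 0.000261). Against day 0 in the duodenum the ratio was 4.4 (2.47 to 8.35) and the fitted log2 fold change of 2.18 ± 0.93 was not called (adjusted p = 0.0636). Day 0 number 3 alone held 12 of the 15 counts, and without that library it was 3.28 and called (adjusted p = 0.04). The gene has close relatives, Retnla and Retnlg, and the authors' estimation could share reads among them, so these low values are uncertain. Car1, a large-bowel gene, was 0, 1.15 and 2.40 CPM in ileal samples 1 to 3 of week 4 and at most 0.0911 CPM in every other sample, while Best2, a goblet gene of the colon, was at most 0.145 CPM in all 46. Retnlb was 1.98, 3.13 and 1.00 CPM in those 3 ileal samples. The part of large-bowel RNA in these values was not tested.

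**Figure D3:**
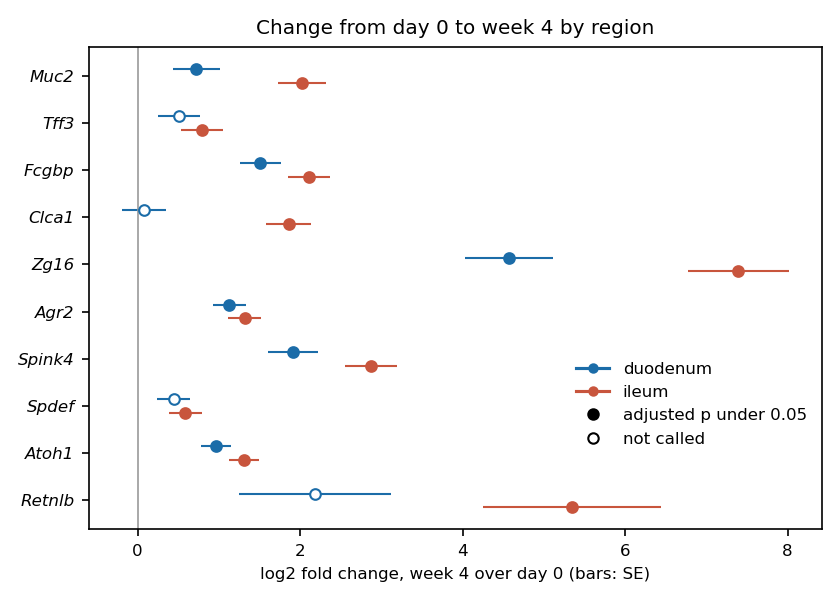
Log2 fold change of week 4 over day 0 for each gene, with bars of 1 SE, duodenum in blue and ileum in red; filled points are called at an adjusted p under 0.05 and open points are not. The ileal point lies right of the duodenal one for every gene, and scaling on epithelial genes turns the sign of Muc2, Tff3, Clca1, Spdef and Atoh1 in the duodenum and of Tff3 and Spdef in the ileum.

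The next question was when the changes took place. From day 0 to day 2, edgeR called no member in the duodenum, where 6.80% of all genes were called; 1 member had an unadjusted p under 0.05, and DESeq2 also called 0. In the ileum over the same days (5.20% of all genes called, 2.61% lower), Zg16 fell by 2.31 ± 0.53 (adjusted p = 0.00714) and Spdef fell by 0.68 ± 0.20 (adjusted p = 0.0381) on the log2 scale. The call of Zg16 ended without day 2 number 2 (-2.00, adjusted p = 0.0509) and that of Spdef without 5 of the 6 libraries in turn.

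Between day 2 and day 8 the duodenum moved in both directions, with 4 members called lower and 2 higher beside 34.0% of all genes called. Muc2 fell by 1.32 ± 0.29 (adjusted p = 0.000566), Fcgbp by 1.36 ± 0.25 (adjusted p = 7.58e-05) and Clca1 by 1.41 ± 0.27 (adjusted p = 0.000112) on the log2 scale. Fcgbp was 3387, 1945 and 2115 CPM on day 2 and 990.0, 971 and 938 CPM on day 8, and Clca1 886, 456 and 625 CPM and 236, 264 and 239.6 CPM, without overlap. Zg16 fell by 1.54 ± 0.48 (adjusted p = 0.0128), and not when day 2 number 1 was left out (-1.11, adjusted p = 0.103) or day 8 number 2 (-1.46, adjusted p = 0.0504). Over the same step Spink4 was higher by 0.97 ± 0.30 (adjusted p = 0.0103) and Spdef by 0.53 ± 0.20 (adjusted p = 0.0379), so gel proteins and these 2 genes went opposite ways; on the epithelial scale neither rise was called, and that of Spdef ended without any 1 of the 6 libraries. In the ileum, 1 member was called between day 2 and day 8 beside 9.79% of all genes (4.04% higher), Spink4, which was higher by 1.25 ± 0.30 (adjusted p = 0.0076). It was not called without day 8 number 1 (0.86, adjusted p = 0.127) or day 2 number 3 (1.12, adjusted p = 0.0502). Over this step 3 of 7 epithelial markers were called higher and 4 of 6 smooth muscle and mesenchyme markers lower in the duodenum, with medians of 0.35 and -1.85, beside medians of -0.15 and 1.29 in the ileum; their part in these values was not tested.

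From day 8 to week 2 Zg16 alone was called, higher in the duodenum (15.7% of all genes called, 6.75% higher) and likewise in the ileum (6.64% called, 4.17% higher). Its log2 fold change was 2.98 ± 0.51 (adjusted p = 0.000302) and 3.50 ± 0.54 (adjusted p = 0.000669).

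The step from week 2 to week 3 ends at day 21, the day to which pups were left with the dam. Whether the week 3 animals had already left it is not given by the labels. In the ileum 8 of 10 members were called higher, beside 26.8% of all genes called and 12.9% called higher. Zg16 rose by 5.47 ± 0.57 on the log2 scale (adjusted p = 1.97e-09), Agr2 by 1.63 ± 0.21 (adjusted p = 5.88e-08), Muc2 by 1.17 ± 0.29 (adjusted p = 0.002) and Fcgbp by 1.09 ± 0.25 (adjusted p = 0.000863). Spink4 rose by 1.06 ± 0.30 (adjusted p = 0.00643). Clca1 rose by 0.88 ± 0.27 (adjusted p = 0.0118; -0.09 on the epithelial scale), Spdef by 0.81 ± 0.20 (adjusted p = 0.00182; -0.15) and Atoh1 by 0.62 ± 0.18 (adjusted p = 0.00892; -0.34). Without week 2 number 1 the calls of Spink4, Clca1 and Atoh1 ended, as did that of Spink4 without week 3 number 2. Tff3, at 0.66 ± 0.26, missed the threshold (adjusted p = 0.0528; -0.32 on the epithelial scale).

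In the duodenum 5 of 10 members were called higher over this step, beside 18.3% of all genes called and 7.70% called higher. They were Zg16 at 2.98 ± 0.50 (adjusted p = 2.81e-05), Agr2 at 1.28 ± 0.20 (adjusted p = 7.47e-06), Muc2 at 0.98 ± 0.29 (adjusted p = 0.014), Fcgbp at 0.92 ± 0.25 (adjusted p = 0.00689) and Spdef at 0.77 ± 0.20 (adjusted p = 0.00446). Clca1, at 0.26 ± 0.27 (adjusted p = 0.557; -0.03 on the epithelial scale), and Atoh1, at 0.37 ± 0.18 (adjusted p = 0.166), were not called. The call of Fcgbp ended without week 2 number 2, and that of Muc2 without week 2 number 3 or week 3 number 1. The summed epithelial markers were 4310 to 4710 CPM at week 2 and 8250 to 10700 CPM at week 3 in the ileum, and 4600 to 4900 and 5890 to 6720 CPM in the duodenum. Scaling on them moved the median change of all genes by -0.96 in the ileum and -0.29 in the duodenum, and left 2 members called in the ileum, Zg16 (4.48) and Agr2 (0.67), and 3 in the duodenum, beside 57.6% and 22.2% of all genes called on that scale.

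Between week 3 and week 4, Fcgbp rose by 1.02 ± 0.25 in the ileum (adjusted p = 0.00311) and by 1.02 ± 0.25 in the duodenum (adjusted p = 0.00445). Clca1 rose by 1.22 ± 0.27 in the ileum (adjusted p = 0.00109). With Retnlb this made 3 members called in the ileum, beside 16.1% of all genes (8.26% higher), and 2 in the duodenum, beside 12.7% (7.75% higher). Retnlb entered these counts only because its week 4 samples passed the filter. The duodenal Fcgbp call ended without week 4 number 2 (0.70, adjusted p = 0.0824), and without ileal week 4 number 1, the library low in Fabp6, 5 members were called in the ileum. Zg16 did not go on rising detectably, at 0.31 ± 0.47 in the ileum (adjusted p = 0.731) and -0.21 ± 0.47 in the duodenum (adjusted p = 0.816).

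**Figure D4:**
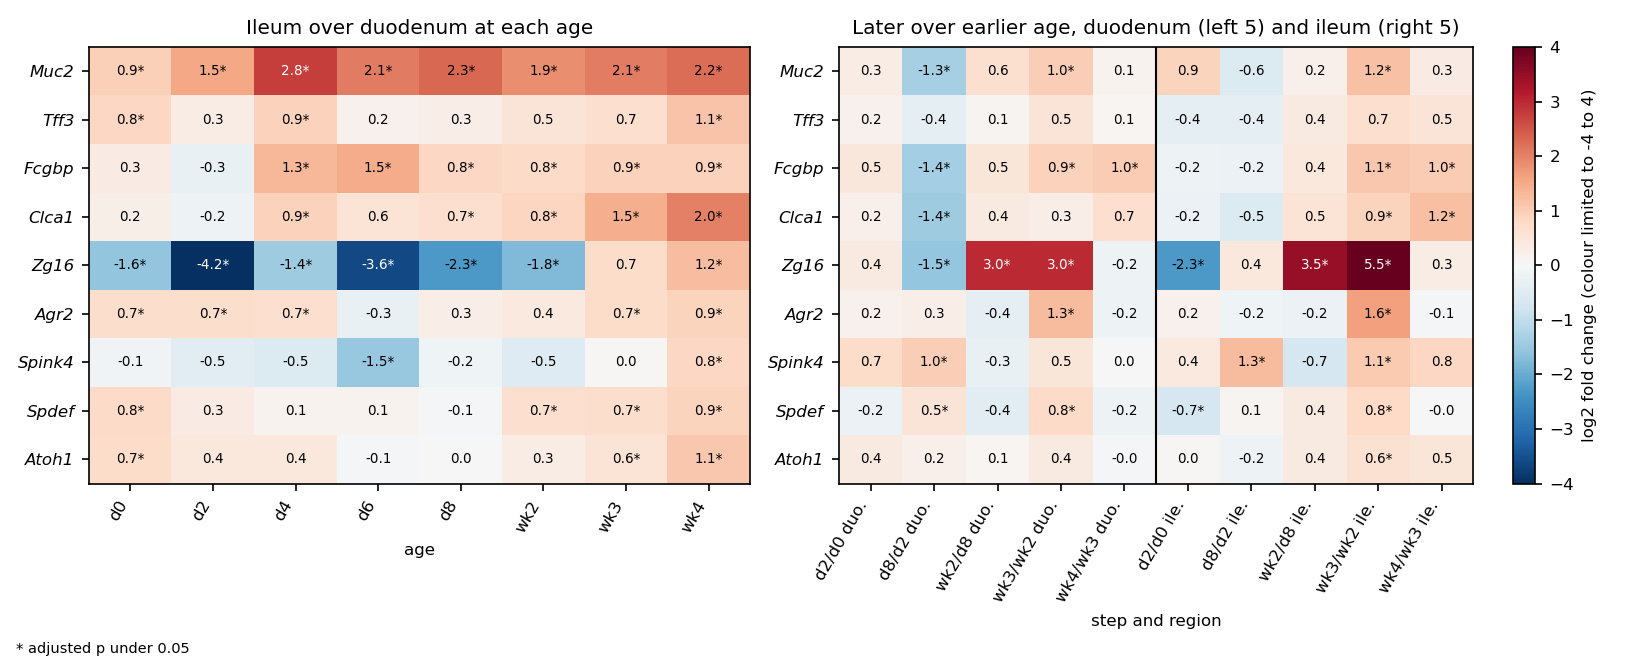
Log2 fold changes of 9 members (Retnlb is left out because many of its groups are at 0 counts), as numbers on a colour scale limited to -4 to 4, with a star for an adjusted p under 0.05. The left panel gives ileum over duodenum at each age, with Muc2 positive and starred throughout and Zg16 negative to week 2; the right panel gives each later age over the earlier one on the CPM scale, and between week 2 and week 3 in the ileum the epithelial scale turns the sign of Tff3, Clca1, Spdef and Atoh1, as it does that of Clca1 in the duodenum.

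The second comparison set the ileum against the duodenum at each age. At week 4, 9 of 10 members were called higher in the ileum, beside 28.4% of all genes called and 14.5% called higher. The largest differences were Muc2 at 2.25 ± 0.30 (adjusted p = 1.29e-06) and Clca1 at 2.00 ± 0.28 (adjusted p = 2e-06) on the log2 scale. Tff3 differed by 1.13 ± 0.26 (adjusted p = 0.00172), Atoh1 by 1.09 ± 0.18 (adjusted p = 4.33e-05), Fcgbp by 0.94 ± 0.25 (adjusted p = 0.00612), Spdef by 0.90 ± 0.20 (adjusted p = 0.00123) and Agr2 by 0.88 ± 0.20 (adjusted p = 0.00173). Zg16, at 1.24 ± 0.47 (adjusted p = 0.0475), and Spink4, at 0.82 ± 0.30 (adjusted p = 0.0359), were close to the threshold, and 5 and 3 of the 6 single-library omissions ended their calls, among them duodenal week 4 number 2 for both and ileal week 4 number 1 for Zg16. The call of Tff3 ended without ileal week 4 number 3 (0.61, adjusted p = 0.0828) and that of Fcgbp without duodenal week 4 number 1 (0.66, adjusted p = 0.0619). The Retnlb difference of 1.84 ± 0.84 was not called (adjusted p = 0.0999). The pan-epithelial markers had a median log2 difference of -0.03 between the regions at week 4, and scaling on these markers still called 9 members.

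Across earlier ages Muc2 was called higher in the ileum at each of the 8 ages, with log2 differences from 0.95 ± 0.29 on day 0 (adjusted p = 0.0418) to 2.75 ± 0.31 on day 4 (adjusted p = 4.48e-08). The day 0 call ended in 4 of 6 single-library omissions and on the epithelial scale (1.00, adjusted p = 0.0723). Zg16 went the other way before weaning. The log2 difference was called at each age to week 2, and was -1.58 ± 0.49 on day 0, -4.25 ± 0.56 on day 2, -1.42 ± 0.50 on day 4, -3.61 ± 0.90 on day 6, -2.28 ± 0.52 on day 8 and -1.77 ± 0.48 at week 2. At week 3 the difference was 0.72 ± 0.47 and not called (adjusted p = 0.325). On day 2 the samples were 3.45, 1.11 and 2.18 CPM in the ileum and 65.6, 16.5 and 48.7 CPM in the duodenum, and from day 0 to week 2 the groups overlapped only at day 4. Leaving out 1 library ended the call of Zg16 for 5 of 6 libraries on day 0, 4 of 6 on day 4 and 2 of 6 at week 2.

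Fcgbp was called higher in the ileum from day 4 on, with log2 differences from 0.77 ± 0.25 at week 2 (adjusted p = 0.0238) to 1.47 ± 0.31 at day 6 (adjusted p = 0.000345). Clca1 was called higher on day 4 and day 8 and from week 2 on, from 0.67 ± 0.27 on day 8 (adjusted p = 0.0427; 5 of 6 single-library omissions ended that call) upward. Agr2 was called higher on day 0, 2 and 4 and at week 3 and week 4, Spdef on day 0 and from week 2 on, Atoh1 on day 0 and from week 3 on, and Tff3 on day 0 and 4 and at week 4. Of 6 single-library omissions each, 4 ended the calls of Clca1 at week 2 and of Agr2 on day 2, 3 that of Fcgbp at week 2, 5 that of Atoh1 at week 3, and 2 those of Spdef at week 2 and week 3, of Fcgbp at week 3 and of Tff3, Clca1 and Agr2 on day 4. On day 0, 6 ended the call of Agr2, 5 that of Tff3 and 2 those of Spdef and Atoh1. Without duodenal week 2 number 2, low in Pdx1, the week 2 values were 0.62 for Fcgbp (adjusted p = 0.135) and 0.64 for Clca1 (adjusted p = 0.142). On the epithelial scale Fcgbp (0.43), Agr2 (0.23), Spdef (0.23) and Atoh1 (0.05) were not called at week 3, nor Tff3 on day 0 or Agr2 on day 0 and day 2. Spink4 was called lower in the ileum at day 6, with a log2 difference of -1.51 ± 0.37 (adjusted p = 0.00167), when the 2 ileal samples held 49.1 and 43.5 CPM and the 2 duodenal ones 123 and 139.9 CPM. Before week 4 it was called at no other age.

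In counts, the members called higher and lower in the ileum were 5 and 1 on day 0 (6.10% of all genes called), 2 and 1 on day 2 (8.01%), 5 and 1 on day 4 (26.6%), 2 and 2 on day 6 (35.3%), 3 and 1 on day 8 (39.6%), and 4 and 1 at week 2 (22.4%). At week 3, 6 members were called, all of them higher (14.2% of all genes called, 7.28% higher). Day 0 was the least stable, since leaving out any 1 of its 6 libraries left between 0 and 3 of the 6 calls. Averaged over the ages, 7 members were called higher and 2 lower, beside 62.1% of all genes called. Muc2 differed most, at 1.97 ± 0.11 (adjusted p = 1.65e-17), and the 2 lower ones were Zg16 at -1.62 ± 0.20 (adjusted p = 1.38e-08) and Spink4 at -0.31 ± 0.11 (adjusted p = 0.0121). On the epithelial scale Spink4 was not called (-0.21, adjusted p = 0.0933), and at week 3 2 members rather than 6 were called.

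Markers of other tissues in the pieces also differed between the regions. All 6 smooth muscle and mesenchyme markers were called higher in the ileum on average, and at week 4 their sum was 89.1 to 295 CPM there and 28.5 to 95.6 CPM in the duodenum. Of 7 exocrine pancreas markers, 6 were called higher in the duodenum on average, with sums at week 4 of 4.46 to 12.8 CPM beside 1.89 to 3.32 CPM. Of the large-bowel list, 3 genes were tested at week 4, with 2 higher and 1 lower in the ileum, and the sums were 33.3 to 40.1 CPM in the ileum and 9.20 to 18.8 CPM in the duodenum, where Car1 was 0 in each sample. Of the pancreas markers Prss2, Cela3b, Pnlip and Ctrb1 were at 0 in all 3 ileal samples of week 4. The part of these tissues in the regional differences was not tested.

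Whether the course over age itself differed between the regions was tested as an interaction. It was called for 7 of 10 members, beside 22.4% of all genes, namely Zg16 (adjusted p = 1.79e-05), Clca1 (0.00117), Fcgbp (0.00825), Spink4 (0.0181), Atoh1 (0.0205), Muc2 (0.0317) and Spdef (0.0432). With all 48 samples 2 members were called and with no low-count filter 3, and on the epithelial scale the calls of Atoh1 (adjusted p = 0.0988) and Spdef (0.185) ended. Of the 46 single-library omissions, 31 ended the call of Spdef and 4 each those of Muc2, Spink4 and Atoh1, the 4 for Muc2 including duodenal day 0 number 1 and ileal day 0 number 2. For the change from day 0 to week 4 alone, 3 members were called (5.99% of all genes, 3.14% in this direction), each with the larger rise in the ileum. Beside Clca1 these were Zg16, with a difference of 2.83 ± 0.68 on the log2 scale (adjusted p = 0.011), and Muc2, with 1.30 ± 0.41 (adjusted p = 0.0495; 8 of the 12 single-library omissions ended that call, as did the epithelial scale, with 1.39 and an adjusted p of 0.0621). For the step from week 2 to week 3, edgeR called 0 members (1.38% of all genes); 1 had an unadjusted p under 0.05, and DESeq2 called 1.

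Levels of different genes can be set side by side only per length, here mean CPM per kilobase of annotated exon, a length that may be incomplete for the repeat-rich Muc2. On that scale Tff3 led the members in both regions at every age up to week 2, with 520 on day 0 in the ileum and 290 in the duodenum. At week 3 and week 4 Zg16 led in both regions, with 1519 per kilobase in the ileum and 643 in the duodenum at week 4. Fcgbp followed with 943 and 493. Atoh1 and Spdef stood at 13.2 and 8.83 per kilobase in the ileum at week 4, above Retnlb at 2.93. All 10 genes together summed to 3770 to 4230 CPM on day 0 and 14300 to 19400 CPM at week 4 in the ileum, and to 2840 to 3110 and 5130 to 10300 CPM in the duodenum. The duodenal sums had their lowest mean at day 6 (1480 to 1510 CPM), and at day 4 they ran from 1460 to 2550 CPM.

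Other genes of goblet cell formation were taken from a list of 12 secretory lineage regulators. Between day 0 and week 4, 6 were called higher and 1 lower in the duodenum, and 7 higher and 1 lower in the ileum, and the list's median was 0.56 and 0.58. Of all genes, 40.5% were called in the duodenum (20.4% higher) and 41.9% in the ileum (21.5% higher). Whether this list or those below differ from all genes was not tested. The 4 largest changes were in Klf4, a factor of terminal goblet differentiation (1.79 ± 0.19 in the duodenum and 2.12 ± 0.19 in the ileum), Dll4, a Notch ligand (1.06 ± 0.25 and 1.42 ± 0.25), Gfi1, a repressor that acts after Atoh1 (1.42 ± 0.26 and 1.38 ± 0.26), and Foxa2 (1.38 ± 0.27 and 0.98 ± 0.28). On the epithelial scale Klf4 stayed called (0.75 and 1.12), and Dll4 (0.01 and 0.35), Gfi1 (0.41 and 0.37) and Foxa2 (0.39 and -0.05) did not. The one gene called lower was Notch1, the receptor that holds progenitors back from the secretory fate, at -0.66 ± 0.24 and -0.81 ± 0.25; it is named here after its values were seen.

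Of 19 genes for mucin folding, O-glycosylation and granule release, 6 were called higher and 1 lower in the duodenum and 13 higher in the ileum, with medians of 0.32 and 0.70. The shares of all genes called were 40.5% in the duodenum (20.4% higher) and 41.9% in the ileum (21.5% higher). B3gnt6, which builds the core 3 sugar chain of intestinal mucin, changed by 4.64 ± 0.57 in the duodenum and 4.87 ± 0.56 in the ileum. B4galnt2, which caps such chains, changed by 2.43 ± 0.22 and 2.81 ± 0.22, and Mep1b, the meprin that releases Muc2 from the surface, by 2.02 ± 0.22 and 2.54 ± 0.22. Gcnt1, a core 2 enzyme, changed by 2.80 ± 0.38 in the ileum (adjusted p = 8.67e-08), and its value in the duodenum, 0.52 ± 0.36, was not called (adjusted p = 0.262; -0.50 on the epithelial scale). The difference of its changes between the regions was called, at 2.29 ± 0.51 (adjusted p = 0.00552). All 3 of B3gnt6, B4galnt2 and Mep1b stayed called in both regions on the epithelial scale, and Gcnt1 in the ileum.

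Of the other mucins and trefoil factors, 7 of 11 listed were tested, with 2 called higher in the duodenum and 3 higher and 2 lower in the ileum. Beside these stood 40.5% and 41.9% of all genes called, and 20.4% and 21.5% called higher. Muc3, a membrane-bound mucin of the enterocyte brush border, changed by 5.42 ± 0.36 in the duodenum and 4.86 ± 0.35 in the ileum, and Muc20 by 1.38 ± 0.44 and 3.30 ± 0.49 (0.34 and not called in the duodenum on the epithelial scale). Muc3a, tested as a separate gene, was not called higher in the duodenum. In the ileum Muc1 was lower, at -4.36 ± 0.79. Tff2, a trefoil peptide of the stomach and Brunner glands, was also called lower there, but 1 day 0 sample held 17.7 CPM and the others 0.259 and 0.119 CPM. That sample, number 2, was also the ileal one with the highest Pdx1. Without it, 9 of the 10 goblet cell and mucus genes were called higher from day 0 to week 4 in the ileum, with Tff3 at 0.70 (adjusted p = 0.0584).

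Of 9 cytokines that act on goblet cells, 3 passed the low-count filter. Il33 was higher at week 4 in both regions (2.55 ± 0.37 in the duodenum and 2.92 ± 0.38 in the ileum), Il18 was higher in the duodenum (1.63 ± 0.26, while its ileal value of 0.38 ± 0.25 was not called and was -0.68 on the epithelial scale), and Tslp was lower in the duodenum (-2.73 ± 1.10, adjusted p = 0.0441). Il13, the type 2 cytokine best known to drive goblet cell increase, was at most 0.0835 CPM in any sample of day 0 or week 4. Markers of Paneth and tuft cells rose over the same span on the CPM scale. The part of other secretory cells of the epithelium in the changes above was not tested. All 7 Paneth cell markers and all 5 tuft cell markers were called higher at week 4 than at day 0 in both regions, with Paneth sums of 55.1 to 84.7 CPM on day 0 and 2470 to 4470 CPM at week 4 in the ileum. Of 5 enteroendocrine markers, 2 were called higher in the duodenum, and the list's median was 0.42 there and 0.17 in the ileum. The medians of all genes were -0.02 and 0.08. Of all genes, 20.4% and 21.5% were called higher in the duodenum and ileum.

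The members did not share one course. Over the 16 group means the correlation of log2 CPM between the 45 pairs of members had a median of 0.62 and ran from 0.04, for Muc2 and Spink4, to 0.90, for Fcgbp and Clca1; all means come from the same 46 libraries. Among 12355 genes of sufficient level, the 5 closest to Muc2 were Ikbke, Rnf152, Fam102b, Gsn and Slc17a9, with correlations of 0.94 to 0.95. Those closest to Clca1 were Ptprj (0.91), Fcgbp (0.90), Kcnk6, Bmp2 and Pde9a. Those closest to Retnlb were Il18bp (0.92), H2-DMa (0.91), Zc3h12a, Tap1 and Ift22. These are descriptions over 16 points, of which Muc2 and its neighbours share the split between regions and Retnlb and its neighbours a high value at week 4.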

How the data were processed

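Whole-tissue RNA was sequenced on an Illumina NovaSeq, per the labels' protocols. STAR 2.6.1d, Salmon 0.14.2, DESeq2 1.30.1 and mm10 are named in the submitters' processing notes, without their roles. The authors deposited estimated counts per gene for 48 samples, all whole numbers, and signal tables of normalized values, of which all 40 columns equal the count divided by 1 factor per sample; 8 samples have no such column. The deposited estimated counts were used for every value here. edgeR 4.0.16 (R 4.3.3) fitted 46 samples in 16 groups, with its filter on low counts, TMM scaling and robust quasi-likelihood tests, 26 in all, each adjusted by Benjamini-Hochberg over 21986 genes. CPM values are TMM-scaled, correlations use log2 CPM with a prior count of 2, and SE was taken as the size of the log2 fold change over the root of its F statistic. The members, the gene lists and the removal of the 2 day 6 samples were chosen with earlier results of these data known. The text names all 10 members, up to 4 called genes per pathway list with the largest change from day 0 to week 4, and the 5 genes most like Muc2, Clca1 and Retnlb. Alternatives were all 48 samples, leaving out the 8 samples without a normalized column, DESeq2's size factors within edgeR, scaling on 7 epithelial genes, no filter, a mean count of 10, DESeq2 1.42.0, only the compared groups, a replicate block and each sample left out. The fit was also run on simulated counts for some of the 26 tests, with genes changed in ileal week 4 alone. Its outcome is not given here, and it does not cover data in which many genes change in many groups. Of 54532 genes, 54409 identifiers were found in GENCODE M21 (mm10), which gave positions and lengths. Whether the counting used strand is not given in the sources used here. Total counts were 16824021 to 65042327 per sample, and 3 counts were taken as the floor of a group at 0.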

Additional observations from a re-analysis of the deposited data

Results flagged for a closer look

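For 3 genes the change from day 0 to week 4 differed between the regions by edgeR's quasi-likelihood test of that difference. Of all genes, 5.99% were called for it, and 3.14% with the ileal change above the duodenal one. The ileal log2 fold change exceeded the duodenal one by 1.30 for Muc2 (adjusted p = 0.0495), 1.78 for Clca1 (adjusted p = 0.00358) and 2.83 for Zg16 (adjusted p = 0.011). For Muc2, 8 of the 12 single-library omissions ended the call, as did the epithelial scale (adjusted p = 0.0621). All 3 ileal week 4 samples of each gene lay above the ileal samples of day 0.

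The course over the 8 ages differed between the regions for 7 genes by the interaction test, with an adjusted p of 1.79e-05 for Zg16, 0.00117 for Clca1, 0.00825 for Fcgbp, 0.0181 for Spink4, 0.0205 for Atoh1, 0.0317 for Muc2 and 0.0432 for Spdef. Of all genes, 22.4% were called for the interaction. The call of Spdef ended in 31 of 46 single-library omissions, and on the epithelial scale the calls of Spdef and Atoh1 ended. With all 48 samples 2 members were called, and with no low-count filter 3.

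The 2 left-out day 6 samples also held signal, with 9 members above 3 counts in the one labelled duodenum and 9 in the one labelled ileum. The sample labelled duodenum had 654.1 CPM of Muc2, 2222 of Fcgbp, 0.294 of Zg16 and 49.9 of Spink4 (CPM without TMM scaling). The sample labelled ileum had 152.4 CPM of Muc2, 725.7 of Fcgbp, 3.995 of Zg16 and 85.3 of Spink4. For Muc2, Fcgbp and Zg16 each lay nearer to the 2 other day 6 samples of the opposite label than to those of its own, and Spink4 in the one labelled ileum lay between the regions.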

How the results depend on the processing

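Over 137 member results and 2999 refits, 2719 kept direction and side of the threshold, 253 lost the call, 12 gained it and 15 turned sign. The 137 are the results called in the main fit or reported though not called. A call gained by any other result is not counted, so gains and losses cannot be weighed against each other. Scaling on pan-epithelial genes turned the change from day 0 to week 4 of Muc2 (-0.35), Tff3 (-0.52), Clca1 (-0.97), Spdef (-0.58) and Atoh1 (-0.06) in the duodenum and of Tff3 (-0.09) and Spdef (-0.41) in the ileum, and that from week 2 to week 3 of Clca1 in the duodenum (-0.03) and of Tff3 (-0.32), Clca1 (-0.09), Spdef (-0.15) and Atoh1 (-0.34) in the ileum. Uncalled values also turned when a library was left out, namely Clca1 from day 0 to week 4 in the duodenum without day 0 number 1 (-0.08) or week 4 number 2 (-0.14, with 0.36 the highest value), and Zg16 from week 3 to week 4 in the ileum without week 4 number 3 (-0.03, with 0.47 the highest value).

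That scaling left 6 members called from day 0 to week 4, 2 from day 8 to week 2, 2 from week 2 to week 3 and 6 from week 3 to week 4 in the ileum, 3 from week 2 to week 3 in the duodenum, 3 between regions on day 0, 2 at week 3, and 1 for the region difference of the week 3 step. Of all genes, that scale called 61.1% from day 0 to week 4 and 57.6% from week 2 to week 3 in the ileum. For the step from week 2 to week 3 it called 22.2% in the duodenum and 17.7% for the region difference. With a model of just the groups compared, 1 was called from day 0 to day 2 in the duodenum, 2 from day 2 to day 8 in the ileum, 3 and 2 from day 8 to week 2 in the duodenum and ileum, 3 between regions on day 0 and 1 on day 4, and 1 for the region difference of the week 3 step. With all 48 samples, 0 were called from day 0 to day 2 in the ileum, 3 from week 2 to week 3 in the duodenum, 2, 0 and 3 between regions on day 0, day 6 and week 2, 1 for the region difference of the week 4 change and 2 for the interaction. Without the low-count filter 1 was called from day 0 to day 2 in the ileum, 3 between regions on day 0 and 3 for the interaction. A mean count of 10 left out Retnlb and called 1 from week 3 to week 4 in the duodenum. Without the 8 samples, and with DESeq2, 5 were called from week 3 to week 4 in the ileum and 1 for the region difference of the week 3 step, as 1 was with DESeq2's size factors in edgeR. Shares of all genes called are not given for the other counts in this paragraph, nor for the omissions below. Whether those member counts moved with the share of all genes was not tested. Except where a step above says it, the cause was not tested.

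Leaving out 1 library gave 9 to 10 and 10 members called for age in the duodenum and ileum, 5 to 6 and 8 to 10 from day 0 to week 4, 0 and 0 to 2 from day 0 to day 2, 4 to 5 and 0 to 1 from day 2 to day 8, 1 and 1 from day 8 to week 2, 4 to 5 and 5 to 8 from week 2 to week 3, and 1 to 2 and 3 to 5 from week 3 to week 4. Between regions it gave 0 to 3 on day 0, 2 to 4 on day 2, 4 to 5 on day 4, 4 on day 6, 2 to 4 on day 8, 1 to 5 at week 2, 4 to 6 at week 3, 6 to 9 at week 4 and 9 averaged. The region difference kept 2 to 3 for week 4 and 0 for week 3, and the interaction 4 to 8.

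The labels do not pair the samples, and the data gave a mixed answer, so the block was kept as an alternative. Equally numbered samples of both regions correlated in their deviations with a mean r of 0.155 over 23 pairs (-0.363 to 0.672, 16 over 0.1), beside -0.079 for other numbers, and 17 of 23 correlated best with their own number, a hint from the data and not from the design. Deviations from a group mean cancel within the group, so the value for other numbers is not independent of that for equal numbers. For the same reason both day 6 pairs have the same r of 0.187. A replicate block gave Retnlb a call from day 0 to week 4 in the duodenum (2.53, adjusted p = 0.0306), ended that of Spdef from day 0 to day 2 in the ileum (-0.67, adjusted p = 0.0551), which left 1 member there, and called 1 for the region difference of the week 3 step; it changed no other member's call. Depth limits Retnlb, whose counts were under 13 in every sample before week 4.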
